A study of Drosophila melanogaster with 3 samples.

Results

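The 290 annotated tRNA genes of the Drosophila melanogaster chromosome arms were set against peaks of the homeodomain transcription factor B-H1 in whole embryos. They are the genes whose biotype is tRNA in the Ensembl annotation, 41 on 2L, 98 on 2R, 48 on 3L, 79 on 3R, 24 on X and 0 on 4, out of 18164 annotated genes other than transposable elements. The embryos were of the transgenic strain B-H1-GFP, carried a fusion of B-H1 with eGFP, and were 8 to 24 hours old by the source label, with which another label for age conflicts. Chromatin was precipitated with an antibody against GFP in 3 biological replicates of 1 group. The labels give neither the cells that made the fusion protein nor the number of embryos, so a peak belongs to no named cell type. Each replicate has a deposited ranked list of candidate peaks and a shorter thresholded list, and the whole series a conservative list. A tRNA gene was counted as having a peak when a summit, the point of strongest signal in the peak, lay in the gene or within 500 bp of it. The rule that picks these genes used no measured value, though earlier results of these data were known when it was set.

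tRNA genes are transcribed by RNA polymerase III. Their promoter lies inside the gene: factor TFIIIC binds boxes A and B and brings TFIIIB, built from Brf, Bdp1 and TBP, to the DNA just upstream, where the polymerase is loaded. In flies the TBP-related factor Trf takes the place of TBP at most of these genes. The genes are short, occur in many near-identical copies and often sit in groups, and they are active in most cells.

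Genes at most 1000 bp apart were chained into 174 clusters, each counted once. Single genes made up 105 clusters, 43 held 2 genes, 16 held 3, and the rest held 4 to 7. Of the 290 genes, 238 shared their whole sequence with at least 1 other tRNA gene. Reads that fall inside such a gene can map to several places, and no source used here states how the authors treated them. A summit inside a gene with an identical copy, or a peak that overlaps one, is therefore an uncertain placement.

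The genes shown first include summits just before the gene and summits farther upstream of it; other summits lay inside or downstream of a gene. All sequences are from Release 6 of the reference genome (dm6 coordinates, NCBI RefSeq), 5′ to 3′ on the strand of transcription. Capitals mark the first match to box A, spelled TNGNNNAG and searched in the first 30 bases, and to box B, spelled GTTCNANNC, both on the sense strand.
tRNA:Asp-GTC-2-1, 2L:5240766-5240837, plus strand: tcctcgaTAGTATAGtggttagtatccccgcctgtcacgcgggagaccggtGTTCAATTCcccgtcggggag
The 50 bases before tRNA:Asp-GTC-2-1: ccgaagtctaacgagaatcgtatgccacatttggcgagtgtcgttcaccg
tRNA:Pro-AGG-1-1, 2L:14495878-14495949, plus strand: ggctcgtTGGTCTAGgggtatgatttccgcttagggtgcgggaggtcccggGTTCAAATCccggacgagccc
The 50 bases before tRNA:Pro-AGG-1-1: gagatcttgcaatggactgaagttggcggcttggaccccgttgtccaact
tRNA:Tyr-GTA-1-8, 3R:8669081-8669174, minus strand: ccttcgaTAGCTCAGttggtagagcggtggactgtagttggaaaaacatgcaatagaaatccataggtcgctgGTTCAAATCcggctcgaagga
The 50 bases before tRNA:Tyr-GTA-1-8: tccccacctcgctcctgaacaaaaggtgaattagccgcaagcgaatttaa
tRNA:Leu-TAA-2-1, 3R:24112964-24113047, plus strand: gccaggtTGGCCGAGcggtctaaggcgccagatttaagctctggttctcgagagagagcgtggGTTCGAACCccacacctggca
In these 4 genes box A begins at base 8, and box B at base 52 in the Asp and Pro genes, 74 in the Tyr gene and 64 in the Leu gene. The summit of the Asp gene lay 35 bp before its first base and that of the Pro gene 10 bp before it, both in replicate 2 alone. At the Tyr and Leu genes the summits lay 181 and 172 bp upstream and were found in 3 and 2 replicates. Over all 290 genes box A was matched in 256 and box B in 271. Among the 32 genes with a peak in any replicate the matches were 29 and 30, against 227 and 241 of the 258 genes with none, so the shares were close to each other.

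Replicate 2 stands apart, and every result is given by replicate for that reason. Its thresholded list held 3609 peaks on the arms, against 1971 and 2199 in replicates 1 and 3, and 1530 of the 4085 merged regions were found in it alone. Read depth is unknown for all 3.

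tRNA genes had few peaks. In replicate 1, 4 of the 174 clusters had a summit in the thresholded list (2.3%), against 9.17% of the 13945 protein-coding genes with a summit within 500 bp of a transcription start site (TSS). In replicate 2, 20 clusters had one (11.5%), against 13.5% of protein-coding genes. In replicate 3, 4 clusters had one (2.3%), against 9.99%. The share of tRNA clusters was thus below that of protein-coding genes in each replicate, by a small margin in replicate 2. The windows are unlike, since a cluster takes in 500 bp around each of its genes and a protein-coding gene 500 bp around each TSS. As single genes the tRNA shares were 1.38%, 10.7% and 1.72% in replicates 1, 2 and 3. At least 2 replicates had a summit at 5 clusters (2.87%), against 9.34% of protein-coding genes. All 3 had one at 2 clusters (1.15%), against 6.63%. Some replicate had one at 21 clusters (12.1%), against 16.3%, and the conservative list at 7 (4.02%), against 12% of protein-coding genes. Counted as single genes these were 4, 31 and 5 of 290 in replicates 1, 2 and 3, so in replicate 2 some summits reached several genes of a cluster.

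Measured against the bases that tRNA genes and their surroundings occupy, replicate 2 had an excess, and replicates 1 and 3 could not be told from the expected share. The tRNA genes and 500 bp around them cover 233 kb, 0.175% of the bases of the arms, which is the share of summits that random placement gives. In replicate 1, 4 of 1971 summits lay there, 0.203% with an exact (Clopper-Pearson) 95% interval from 0.0553% to 0.519%. In replicate 2, 21 of 3609 did, 0.582% with an interval from 0.361% to 0.888%. In replicate 3, 4 of 2199 did, 0.182% with an interval from 0.0496% to 0.465%. The expected share lay inside the interval in replicates 1 and 3 and below it in replicate 2. These intervals cover counting error only and treat peaks as independent. The ratios of observed to expected were 1.16, 3.33 and 1.04, a mean of 1.85 ± 1.29 (SD, n = 3), above 1 in 3 of 3 replicates (exact sign-flip permutation test over replicates, two-sided, p = 0.25, the smallest that 3 replicates allow). In replicates 1 and 3 the 4 summits stood against 3.44 and 3.84 expected, and both ratios fell below 1 under some alternatives given at the end. Without replicate 2 the mean ratio was 1.10. The ratios changed when the ranked peaks of the same replicate that did not pass the threshold took the place of bases. Among those, 0.109%, 0.316% and 0.167% lay at tRNA genes, and the ratios to them were 1.85, 1.84 and 1.09. By this measure replicate 2 did not exceed replicate 1. In the conservative list 7 of 3078 summits lay at tRNA genes, 0.227% with an interval from 0.0915% to 0.468%, a ratio of 1.30.

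**Figure D1:**
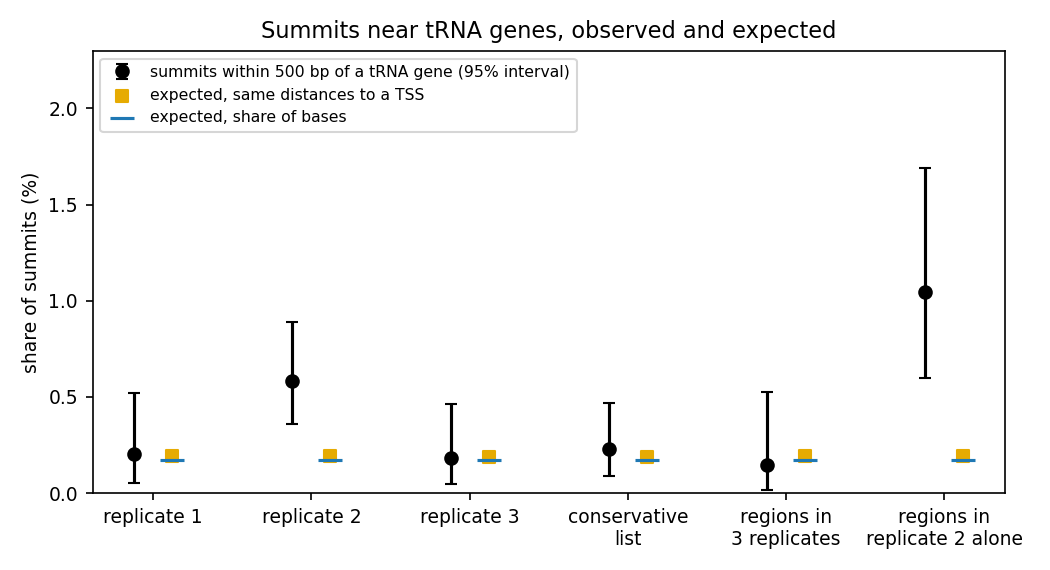
Share of summits within 500 bp of a tRNA gene in each list (vertical axis, percent; points with exact 95% intervals), beside the share expected from the bases of the arms (dashes) and from the distances of the summits to protein-coding TSSs (squares). The point of replicate 2 is at 0.582% and that of regions found in replicate 2 alone at 1.05%, and both intervals lie above the expected shares, while the other intervals include them.

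Within 500 bp of a protein-coding TSS lay 47.1%, 43.9% and 46.5% of the thresholded summits of replicates 1, 2 and 3, against 11.5% of bases. Some tRNA genes lie there too, so the expected share was also computed for the same distances to protein-coding TSSs, in 8 bins. It came to 0.191%, 0.191% and 0.190% of summits in replicates 1, 2 and 3. The ratios to it were 1.06, 3.04 and 0.956, a mean of 1.69 ± 1.17 (SD, n = 3), above 1 in 2 of 3 replicates (exact sign-flip permutation test, two-sided, p = 0.5). Without replicate 2 the mean was 1.01. Nearness to protein-coding promoters therefore changed the expectation little.

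Most regions at tRNA genes came from replicate 2 alone. Of the 1375 merged regions with a peak in all 3 replicates, 2 lay at a tRNA gene (0.145%, interval 0.0176% to 0.524%), a ratio to bases of 0.833. Of the 709 regions in 2 replicates, 3 did (0.423%, 0.0873% to 1.23%). Of the 2001 regions in 1 replicate, 17 did (0.85%, 0.496% to 1.36%), and 16 of those 17 were among the 1530 regions of replicate 2 alone (1.05%, 0.599% to 1.69%, a ratio of 5.99). Of the 471 regions of replicate 1 or 3 alone, 1 did (0.212%, 0.00538% to 1.18%). That interval overlaps the one for replicate 2 alone. The intervals for regions in 3 replicates and for regions of replicate 2 alone do not overlap.

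The 22 merged regions at tRNA genes differed in where they lay. The signal of a peak is the authors' own value, given here as its percentile within the thresholded list of the replicate.

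**Figure D2:**
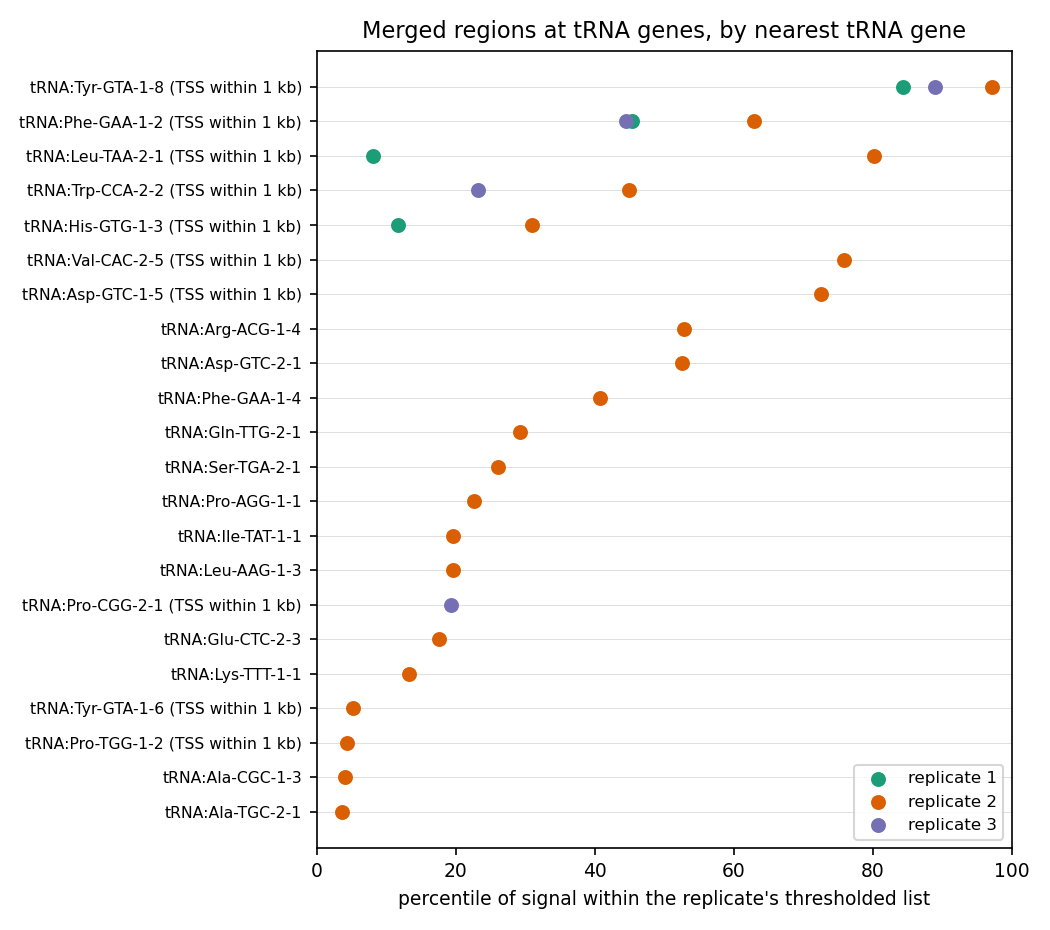
Percentile of signal within each replicate's thresholded list (horizontal axis, 0 to 100) for the 22 merged regions at tRNA genes, named by the nearest tRNA gene, with points coloured by replicate. The top rows are the 5 regions with more than 1 replicate, all with a protein-coding TSS within 1 kb, and all but 1 of the remaining 17 have a point of replicate 2 only.

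The strongest was at tRNA:Tyr-GTA-1-8 (FBgn0012024), in 3R:8669230-8669529. It had percentiles of 84.4, 97.1 and 88.9 in replicates 1, 2 and 3, a mean of 90.1 ± 6.5 (SD, n = 3). The gene belongs to a cluster of tyrosine tRNA genes in an intron of CG8036 and of p (pink), and the summit was 263 bp from a TSS of CG8036. In the ranked lists its best peak stood above the 99th percentile in each replicate. The sequence around this summit is shown because it is the only tRNA region above the 80th percentile in all 3 lists; it is the plus strand of 3R:8669205-8669504, and holds neither TAATTG, the site preferred by the Bar homeodomains, nor TAATTA, the general homeodomain core, on either strand.
Summit of tRNA:Tyr-GTA-1-8: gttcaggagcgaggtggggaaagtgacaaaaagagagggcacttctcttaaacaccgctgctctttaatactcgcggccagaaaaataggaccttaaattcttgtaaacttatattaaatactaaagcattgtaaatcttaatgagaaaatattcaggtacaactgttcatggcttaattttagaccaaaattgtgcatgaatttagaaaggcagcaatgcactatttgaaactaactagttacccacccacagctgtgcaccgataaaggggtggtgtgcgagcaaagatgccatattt
A separate region of the same cluster, at tRNA:Tyr-GTA-1-6, was present in replicate 2 alone, at a percentile of 5.21, with its summit 1 bp before the gene.

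The other region with all 3 replicates was at tRNA:Phe-GAA-1-2 (FBgn0052740), in X:6744129-6744471. Its percentiles were 45.4, 62.9 and 44.5, a mean of 50.9 ± 10.4 (SD, n = 3). The summit lay 192 bp past the end of the tRNA gene and 41 bp from a TSS of RpL17, which encodes a protein of the large ribosomal subunit. The summit thus lay closer to the TSS of RpL17 than to the tRNA gene, and to which of them the peak belongs was not tested.

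Regions with 2 replicates numbered 3. At tRNA:Leu-TAA-2-1 (FBgn0053536), in 3R:24112602-24112941, the percentiles were 8.07 in replicate 1 and 80.2 in replicate 2, and replicate 3 had only a ranked peak, at a percentile of 89.1 of its ranked list. The nearest TSS was that of CG13605, 403 bp away. This summit is the contrasting case for sequence: the plus strand of 3R:24112642-24112941 holds both homeodomain words, in capitals, TAATTG being read from the minus strand as CAATTA.
Summit of tRNA:Leu-TAA-2-1: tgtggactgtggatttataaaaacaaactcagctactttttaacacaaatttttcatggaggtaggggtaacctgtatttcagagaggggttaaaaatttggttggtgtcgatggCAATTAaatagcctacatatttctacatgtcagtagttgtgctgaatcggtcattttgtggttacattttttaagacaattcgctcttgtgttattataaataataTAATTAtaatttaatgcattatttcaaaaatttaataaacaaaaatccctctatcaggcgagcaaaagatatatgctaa

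At tRNA:Trp-CCA-2-2, in 2R:18639146-18639453, the percentiles were 44.9 and 23.3 in replicates 2 and 3, and a TSS of CG30122 lay 34 bp from the summit. At tRNA:His-GTG-1-3, in 2R:12335004-12335410, they were 11.8 and 31.0 in replicates 1 and 2, with a TSS of CG8490 at 162 bp. All 5 regions found more than once therefore lay within 403 bp of a protein-coding TSS, and their summits lay 88 to 253 bp outside the tRNA gene. Even so, 2 of these merged regions overlap a tRNA gene that has identical copies, so their placement is uncertain too. They are the His region and, at its edge only, the Phe region.

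Regions seen in 1 replicate were more varied in position, and those below are named after their values were seen. Of the 16 regions of replicate 2 alone, 12 were over 1 kb from any protein-coding TSS, and in 9 of those 12 the summit lay within 100 bp of the tRNA gene or inside it. Their percentiles in replicate 2 ran from 3.69 to 52.9 with a median of 21.2. The highest were tRNA:Arg-ACG-1-4, 27 bp upstream of the gene at a percentile of 52.9, and tRNA:Asp-GTC-2-1, at 52.6, in an intron of tkv, which encodes a receptor of the Dpp pathway. At tRNA:Pro-AGG-1-1, 5009 bp from the TSS of noc, the percentile was 22.7. Summits lay inside tRNA:Ser-TGA-2-1 (26.0), tRNA:Ile-TAT-1-1 (19.6), tRNA:Glu-CTC-2-3 (17.6) and tRNA:Ala-TGC-2-1 (3.69). Of these 4 genes the Glu gene has identical copies elsewhere and the others have none. Away from the gene were those at tRNA:Gln-TTG-2-1, 223 bp upstream, tRNA:Lys-TTT-1-1, 291 bp downstream in an intron of Btk, and tRNA:Ala-CGC-1-3, 357 bp downstream in an exon of gol. The remaining ones were at tRNA:Phe-GAA-1-4 (81 bp upstream, 40.7) and tRNA:Leu-AAG-1-3 (12 bp upstream, 19.6). Among the genes of these 12 regions with a summit within 100 bp upstream, the Arg, Pro, Phe and Leu genes also have identical copies, and their peaks overlap the gene. The placement of these peaks is thus uncertain too, and only tRNA:Asp-GTC-2-1 among them has no such copy. That gene differs by 1 base from tRNA:Asp-GTC-1-1, whose sequence 12 genes share, so its peak is an uncertain placement as well. Only identity over the whole gene was counted, and near-identical copies of the other genes were not examined.

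With a TSS within 1 kb, replicate 2 alone had regions at tRNA:Val-CAC-2-5 (75.8), beside Naam, at tRNA:Asp-GTC-1-5 (72.5), 103 bp from a TSS of Sema1a, and at tRNA:Pro-TGG-1-2 (4.35), beside CG14326, besides the Tyr region above. The peak at tRNA:Pro-TGG-1-2 overlaps that gene, which has identical copies. Replicate 3 alone had 1, at tRNA:Pro-CGG-2-1 (19.3), in an intron of Bx and 91 bp from its TSS. Replicate 1 had none of its own. At the edge of the 500 bp rule, the outermost summit counted was that of tRNA:Val-CAC-2-5, at 438 bp, and the first one left out was 578 bp from tRNA:Leu-CAA-2-2, at a percentile of 42.3, both in replicate 2.

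In the thresholded lists the replicates differed at clusters near a protein-coding TSS, and more so at those farther away. Of the 52 tRNA clusters within 1 kb of a TSS, 4, 8 and 4 had a summit in replicates 1, 2 and 3. Of the 122 clusters farther away, 0, 12 and 0 did. A count of 0 among 122 allows a share of up to 2.46% (3 counts) by counting error alone, with clusters taken as independent. The share in replicate 2 was 9.84%, from a longer list, and the difference between replicates was not tested. The conservative list had 5 of 52 and 2 of 122, the 2 distal ones at tRNA:Gln-TTG-2-1 and tRNA:Lys-TTT-1-1. That list also had a peak at tRNA:Thr-AGT-1-4, 360 bp from a TSS of CG31279, a gene with none in the thresholded list of any replicate. The 12 distal regions of replicate 2 were not all empty elsewhere: in the ranked lists the nearest gene had a peak at 4 of them in replicate 1 and at 6 in replicate 3. The median percentile of those peaks in the ranked list was 61.5 and 82.5, against 96.9 for the 12 in replicate 2. Over the 122 clusters beyond 1 kb, a ranked peak was present at 49.2%, 79.5% and 46.7% in replicates 1, 2 and 3. Over the 52 within 1 kb the shares were 46.2%, 92.3% and 63.5%, so the ranked lists did not repeat the absence in replicates 1 and 3.

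Peaks at tRNA genes had lower signal than the other peaks of the same list in each replicate, by their medians. The median percentile was 28.6 for the 4 of replicate 1, 29.3 for the 21 of replicate 2 and 33.9 for the 4 of replicate 3, against 50.1 for all others in each. The difference was -21.5, -20.9 and -16.2, a mean of -19.5 ± 2.9 (SD, n = 3), lower in 3 of 3 replicates (exact sign-flip permutation test, two-sided, p = 0.25, the smallest possible). Within tRNA peaks the spread was wide, from 3.69 to 97.1 in replicate 2. The sign depended on the choices. Among the stronger 50% of each list, replicates 1, 2 and 3 had 1, 7 and 1 tRNA peaks, and the difference was 18.7, -4.99 and 27.8, a mean of 13.8. In replicates 1 and 3 that value rests on the Tyr region alone. Within 250 bp of the gene the difference was 16.7 in replicate 3 and stayed below 0 in replicates 1 and 2.

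Where the summits fell around the gene was compared with the bases there. Of the bases within 500 bp of tRNA genes, 21.4% lie inside a gene or in the 100 bp before it, where TFIIIB and the polymerase assemble. In the thresholded lists 0 of 4, 11 of 21 and 0 of 4 summits fell there in replicates 1, 2 and 3, and 0 of 7 in the conservative list. With 4 summits the exact interval reaches 60.2%, so no difference could be detected from the thresholded lists of replicates 1 and 3. The ranked lists, with many more and weaker peaks, gave 22 of 113 (19.5%, exact interval 12.6% to 28.0%), 119 of 319 (37.3%, 32.0% to 42.9%) and 23 of 122 (18.9%, 12.3% to 26.9%). In replicate 2 the share was above that of bases, and in the other replicates the share of bases lay inside the interval. This window was chosen after the data were seen.

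**Figure D3:**
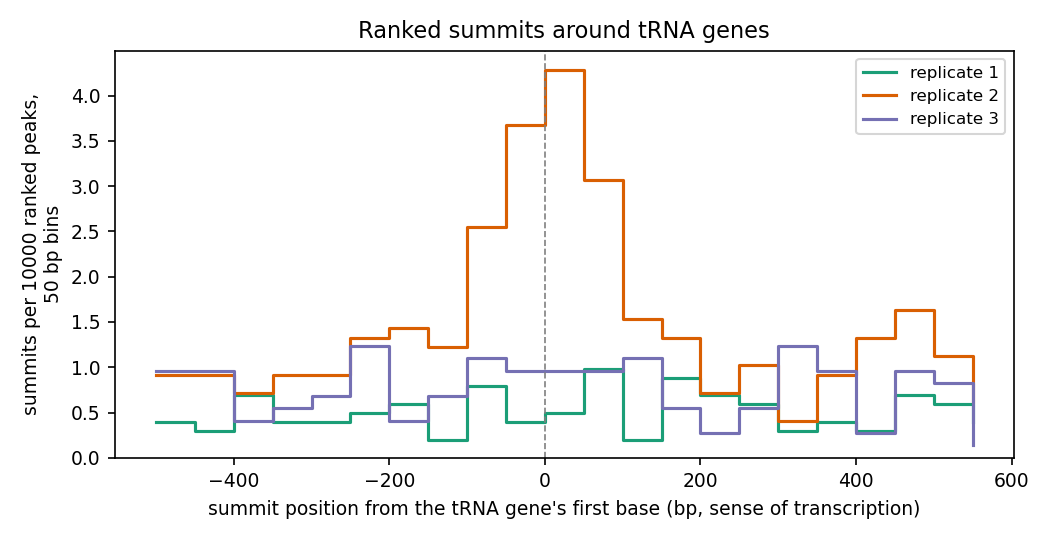
Number of ranked summits per 10000 ranked peaks (vertical axis) in 50 bp bins of position from the first base of the nearest tRNA gene (horizontal axis, bp in the sense of transcription; dashed line at the first base), by replicate. The line of replicate 2 is highest in the bins around the first base, and those of replicates 1 and 3 show no such rise.

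The ranked lists let the same question be put below the threshold. They held 101546, 97966 and 72939 peaks on the arms. Summits at tRNA genes numbered 113 in replicate 1 (0.111%, interval 0.0917% to 0.134%), 319 in replicate 2 (0.326%, 0.291% to 0.363%) and 122 in replicate 3 (0.167%, 0.139% to 0.200%). Against the 0.175% of bases, the ratios were 0.637, 1.87 and 0.958. Replicate 1 was below the share of bases, replicate 2 above it, and the interval of replicate 3 included it. For the same distances to protein-coding TSSs the ratios were 0.644, 1.71 and 0.943, in the same order.

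The share of replicate 2 was highest in its stronger peaks. In the 10% of ranked peaks with the highest signal, the share at tRNA genes was 0.0985%, 0.663% and 0.192% in replicates 1, 2 and 3. In the next 10% it was 0.0394%, 0.602% and 0.165%. The 8 lower bins of replicate 2 held from 0.153% to 0.306%, and 7 of them were also above the share of bases. Together they held 195 summits, against 136.8 expected from bases. Replicates 1 and 3 had no step in the top bins.

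**Figure D4:**
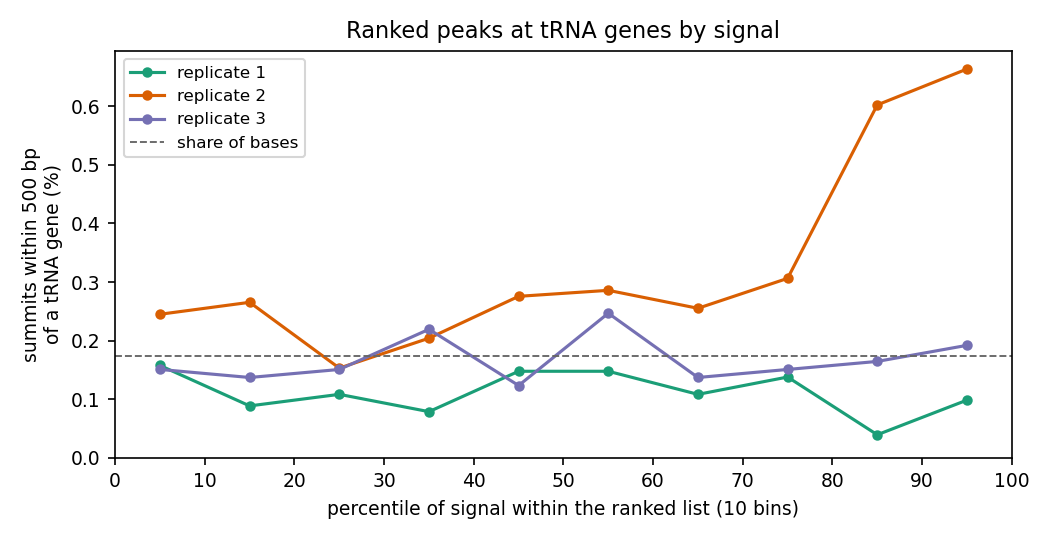
Share of ranked summits within 500 bp of a tRNA gene (vertical axis, percent) in 10 bins of the percentile of signal in each ranked list (horizontal axis), by replicate, with the share of bases as a dashed line. In replicate 2 the top bins reach 0.602% and 0.663%, and replicates 1 and 3 stay at or below 0.247% in every bin.

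Counted by cluster, 84, 145 and 90 of 174 had a ranked peak in replicates 1, 2 and 3 (48.3%, 83.3% and 51.7%). Among protein-coding genes the shares were 56.1%, 74% and 54.2%. The share of tRNA clusters passed that of protein-coding genes in replicate 2 alone, with the unlike windows described above. Clusters with a peak above the 90th percentile numbered 10, 55 and 14 (5.75%, 31.6% and 8.05%), against 18.7%, 28.2% and 19% of protein-coding genes. Of the 55 in replicate 2, 7 were also above it in replicate 1, 10 in replicate 3 and 5 in both. Those 5 include clusters far from a TSS. They are tRNA:Gln-TTG-2-1, at 8284 bp (96.2, 97.2 and 96.4), and that of tRNA:Glu-TTC-1-5, at 13384 bp (97.7, 97.0 and 96.9). A ranked peak at tRNA:Glu-TTC-1-5 in replicate 2 had a −log10 irreproducible discovery rate of 2.32, yet it was absent from the thresholded list. A ranked peak was present in all 3 replicates at 44 clusters, in replicate 2 alone at 42 and in none at 9.

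Of the 26 clusters with 3 or more genes, 13, 25 and 15 had a ranked peak in replicates 1, 2 and 3 (50%, 96.2% and 57.7%), against 54, 82 and 51 of the 105 single genes (51.4%, 78.1% and 48.6%). The shares were close in replicate 1 and farthest apart in replicate 2, and a larger cluster also covers more bases. The largest clusters had no thresholded peak. They are the 7 genes led by tRNA:Ile-AAT-1-3 on 2R, 234 bp from a TSS, and the 7 led by tRNA:Arg-TCG-2-1 on X, both with ranked peaks in 3 replicates. Of the 6-gene clusters, that led by tRNA:Cys-GCA-1-1 on 3L had ranked peaks in replicates 2 and 3, and that led by tRNA:Asn-GTT-1-10 on 3R in replicate 2 alone.

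By amino acid, the genes with a thresholded peak were spread over 16 of 22 names. Ala had the most, 5 of 17 genes, followed by Asp with 4 of 14 and Phe, Pro and Tyr with 3 each. Asn, Cys, Met, iMet (the initiator), SeC (selenocysteine) and Thr had none. In the ranked list of replicate 2, from 66.7% of the Met genes to 100% of the Ala, Asn, Ile, Phe and SeC genes had a peak, so no amino acid was without one. Genes with an identical copy were 20 of the 32 with a thresholded peak (62.5%), against 218 of the 258 with none (84.5%). Neighbouring genes of a cluster share a summit and often a sequence, so these counts are a description.

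Homeodomain words were counted at the summits. In 301 bp windows around the 22 summits, box B was matched on either strand in 13 (59.1%), against 9.35% of the 4063 other merged regions. The rule itself sets this, since the window often takes in the gene. TAATTG occurred in 4 (18.2%), against 23.9% of other regions. TAATTA occurred in 8 (36.4%), against 21.3%. TATCGA, the core of the element of the promoter factor DREF, occurred in 4 (18.2%), against 16.7%. In the 12 distal windows TAATTG occurred in 0 and TAATTA in 3. The windows at tRNA genes had a median of 42.4% G or C, against 37.9% in the other regions. TAATTG and TAATTA are rich in A and T, and whether base content bears on these counts was not tested.

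Whether the excess in replicate 2 was particular to tRNA genes was checked with other gene classes, chosen after the data were seen. In the ranked lists the ratio to bases was 0.637, 1.87 and 0.958 at tRNA genes, and 0.674, 2.01 and 0.939 at the 269 snoRNA genes, which RNA polymerase II transcribes, mostly within introns of host genes. It was 0.866, 1.44 and 0.935 at the 260 miRNA hairpins and 0.890, 1.61 and 1.13 at protein-coding TSSs. Replicate 2 had the highest ratio in all 4 classes. The intervals of tRNA and snoRNA genes overlapped in every replicate, and the difference between the classes was not tested further. In the thresholded lists the ratios were 1.16, 3.33 and 1.04 at tRNA genes, 1.54, 2.74 and 1.73 at snoRNA genes, 0.558, 0.914 and 0.750 at miRNA hairpins, and 4.11, 3.82 and 4.05 at protein-coding TSSs. There replicate 2 had the highest ratio at tRNA genes, snoRNA genes and miRNA hairpins, and the lowest at protein-coding TSSs. For the same distances to protein-coding TSSs, the ranked ratios were 0.644, 1.71 and 0.943 at tRNA genes and 0.706, 1.59 and 0.906 at snoRNA genes. The thresholded ones were 1.06, 3.04 and 0.956 at tRNA genes and 1.19, 2.10 and 1.35 at snoRNA genes. The order of the 2 classes in the ranked list of replicate 2 thus depended on this choice. The part of the longer list of replicate 2 in the tRNA result was not tested.

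**Figure D5:**
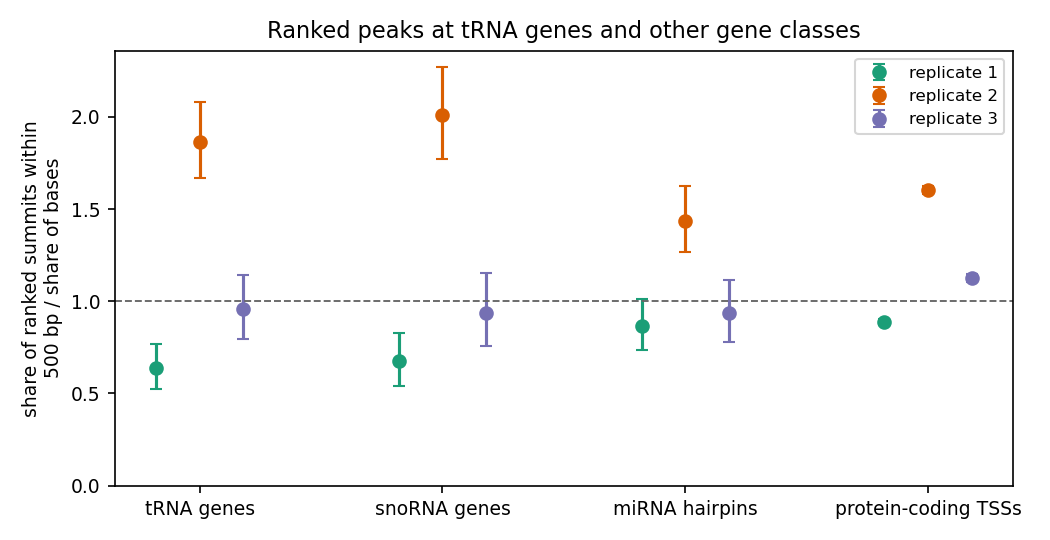
Share of ranked summits within 500 bp of a gene class divided by the share of bases there (vertical axis; points with exact 95% intervals of counting error), for tRNA genes, snoRNA genes, miRNA hairpins and protein-coding TSSs, by replicate. Replicate 2 is the highest in every class, at 1.87 for tRNA genes and 2.01 for snoRNA genes.

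Other genes transcribed by RNA polymerase III had no peak that recurred. None of the 5S rRNA genes had a thresholded peak in any replicate, 0 of 96, and all 96 lie in 1 cluster. In the ranked lists 0, 5 and 0 of them had a peak in replicates 1, 2 and 3. How reads that map to several places were treated is unknown here too, so these counts cannot show that binding is absent. Of the 11 further genes examined, 0, 1 and 2 had one in replicates 1, 2 and 3, and 3 in any replicate (27.3%, against the 16.3% of protein-coding genes given above). They were snRNA:7SKa in replicate 2, and snRNA:U6:96Ab and snRNA:U6:96Ac, which neighbour each other, in replicate 3. None of the 11 had one in more than 1 replicate or in the conservative list.

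The protein-coding genes behind tRNA synthesis were examined last, from 2 lists of the pathway. Of the 22 genes of RNA polymerase III and its factors, 3 had a region in all 3 replicates within 500 bp of a TSS (13.6%), against the 6.63% of all protein-coding genes given above. Bdp1, a TFIIIB subunit, had percentiles of 93.0, 85.8 and 93.2 in replicates 1, 2 and 3 (90.7 ± 4.2, SD, n = 3). Brf, the TFIIIB subunit that bridges to the polymerase, had 77.8, 71.1 and 79.0 (76.0 ± 4.3, SD, n = 3), and Polr3E, a subunit of the polymerase, had 59.7, 53.6 and 43.8 (52.4 ± 8.0, SD, n = 3). The regions were 2L:13373852-13374104 at Bdp1, 94 bp from the TSS, and 258 and 315 bp from those of Brf and Polr3E. Pbp95, a subunit of the complex that recruits polymerases to small nuclear RNA genes, had a region in replicates 1 and 2 (14.9 and 29.5). Trf, Tbp and the repressor Maf1 were among the genes with none in any replicate.

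Of the 24 listed genes of tRNA maturation and modification 22 were matched, and 1 had a region in all 3 replicates (4.55%). It was Tcs5, of the complex that makes the t6A modification, with percentiles of 99.8 in each replicate. RNaseZ, which trims the tail of the precursor, had a region in replicate 1 alone (25.0), and Archease, a partner of the tRNA ligase, in replicate 2 alone (25.5). The remaining 19 had none. With 22 genes a list, a few calls set these shares, and no gene list is called apart from the rest.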

How the data were processed

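The labels give 3 biological replicates of ChIP-seq with an antibody against GFP on sonicated chromatin of whole embryos that express B-H1-eGFP. Peaks were called per replicate, on dm6 per the file headers and labels. The lists of a replicate were made from its own filtered alignments plus 1 file that all 3 have in common and whose role no source states, so the replicates are not fully independent. No source used here names the aligner or the caller. The signal of a peak is the authors' value, deposited with no stated scale, and was used only to rank peaks within a list. The ranked lists hold the −log10 of the global irreproducible discovery rate, as deposited by the authors, and every thresholded peak had a value of at least 2. Read depth is not given, so the reads behind a peak are unknown. In the series' tables, 32 columns hold values of single samples whose replicate their names do not show, and these were left out. The labels also name a control experiment, not analysed here.

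Peaks on 6 arms were used, with tRNA genes from Ensembl release 115. Overlapping thresholded peaks were merged over replicates. Random placement was computed exactly, as the share of known bases within 500 bp of a tRNA gene, over all bases or within 8 bins of distance to a protein-coding TSS (edges at 100, 200, 500, 1000, 2000, 5000 and 10000 bp). Intervals are exact Clopper-Pearson at 95%, and means were tested with the exact sign-flip permutation test over the 3 replicates. The calculations were checked on simulated data. Tools were Python 3.11.15, numpy 2.4.6, pandas 2.3.3, scipy 1.17.1 and matplotlib 3.10.9. Alternatives were other windows (250 and 1000 bp), peak overlap in place of summits, the stronger 50% of each list, the conservative list, other bins, chains and summit rules, and leaving out each replicate. tRNA clusters were named where all 3 replicates had a region, up to 5 with 2 replicates, with the nearest TSS, up to 6 genes of each pathway list with a region, and the 3 largest clusters, to which 1 of equal size was added. The genes, lists and tests were chosen with earlier results of these data known. The result of 1 gene of the pathway lists is not reported here.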

Additional observations from a re-analysis of the deposited data

How the results depend on the processing

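Of 36 alternative values, 28 moved by less than the spread between replicates or, for counts, stayed within 1.5 times, but 1 of these passed below a ratio of 1. For the ratio to bases that spread was wide, an SD of 1.29 around a mean of 1.85, with replicate 2 at 3.33. Staying within it is therefore no sign that a ratio is stable. No paired analysis was possible because the replicates form 1 group. The mean ratio of tRNA summits to bases was 1.85. It ran from 1.10, without replicate 2, to 2.25, without replicate 3, and was 2.39 within 250 bp and 1.11 in the stronger 50% of each list. The ratios of replicates 1, 2 and 3 were 1.90, 4.42 and 0.854 within 250 bp, and 0.582, 2.22 and 0.521 in the stronger 50%. With peak overlap in place of summits they were 0, 4.39 and 0.601, a mean of 1.66. Within 1000 bp all 3 were above 1 (1.19, 2.42 and 1.07). At tRNA genes over 1 kb from a TSS it was 0.937, from 0, 2.81 and 0 in replicates 1, 2 and 3. With non-passing ranked peaks in place of bases it was 1.60, and the ratio of replicate 2 was 1.84 in place of 3.33. The mean difference in signal percentile of tRNA peaks was -8.96 within 1000 bp and -8.55 within 250 bp, where replicate 3 turned to 16.7, and turned to 13.8 in the stronger 50% of each list, against -19.5 as reported. Leaving out 1 replicate gave -21.2 to -18.5. With peak overlap in place of summits it gave no value, since replicate 1 had no such peak. Clusters found in all 3 replicates numbered 2 as reported, 7 in the conservative list, 4 within 1000 bp, 1 with peak overlap and 1 in the stronger 50%. Leaving out 1 replicate gave 2 to 4, the 4 without replicate 3. The cause was not tested. Replicates 1 and 3 have 4 thresholded tRNA summits each, which limits what they can show, and the depth behind them is unknown.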
